A study of Danio rerio with 10 samples.

Results

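The genes followed here are the cone and rod opsins of the zebrafish. They were chosen by name, with earlier results of these data known: opn1lw1 and opn1lw2, opn1mw1 to opn1mw4, opn1sw1, opn1sw2 and rho. All 9 are in the gene annotation deposited with the data, 8 had a row in the table of 25911 genes with counts, and 7 passed the filter on low counts that left 23039 genes for testing. opn1mw4 had no row and was not analysed here. opn1mw3 had too few counts to test, with 0, 1, 0, 0 and 0 counts in the 5 can4-/- pools against 3, 1, 1, 1 and 2 in the 5 WT pools.

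RNA was sequenced from whole zebrafish larvae at 3 dpf, in 5 pools of can4-/- larvae and 5 pools of WT siblings. The can4 allele is a mutation in top2a, the gene of DNA topoisomerase IIα, an enzyme that untangles DNA and that dividing cells need. Heterozygous can4 carriers in the AB background were crossed with each other, and their offspring were genotyped one by one before 9 larvae of one genotype went into each pool, so that 45 larvae stand behind each genotype. The homozygotes came from heterozygous mothers and so started with maternal top2a transcript, no treatment is named, and each pool is 1 replicate.

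Opsins are the light-absorbing receptors of photoreceptors. Each binds a vitamin A-derived chromophore, sits at high density in the membranes of the outer segment, and starts the phototransduction cascade through the G protein transducin. Zebrafish have rods, which use rho, and cones of 4 color types: ultraviolet cones use opn1sw1, blue cones opn1sw2, green cones the 4 opn1mw genes and red cones the 2 opn1lw genes. The opn1mw and opn1lw genes are tandem copies that differ in where and when they are used, and opn1mw1 and opn1lw2 are copies used early, in the central retina. At 3 dpf the first photoreceptors of the larva have just formed, and other opsins outside this group serve the pineal organ, the deep brain and cells that do not form images.

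By the coordinates of Ensembl release 96 on GRCz11, the opn1mw genes lie in one array on chromosome 6, from 41181869 to 41202554 on the plus strand, with gaps of 2496, 2021 and 7080 bp between neighbors. The genes opn1sw2, opn1lw1 and opn1lw2 form a second array on the plus strand of chromosome 11, from 25459697 to 25483206, with gaps of 2239 and 1008 bp. The gene opn1sw1 lies alone on chromosome 4 (13577665 to 13580348, minus strand), and so does rho on chromosome 8 (54076195 to 54077740, minus strand). The deposited annotation gives whole gene models, without exons, introns or UTRs.

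The pools had 30098991 to 38106622 counts in can4-/- and 29281449 to 45544046 in WT. Transcript of top2a itself was 802 ± 311 normalized counts in can4-/- pools and 8651 ± 248 in WT pools (SD, n = 5 each), a log2 fold change of -3.43 (SE 0.19) in the direction the labels give. Pool 2 of the mutants stood apart, with 1358 normalized counts of top2a against 635 to 688 in the other 4, and it also had the most opsin counts, so values without it are given below. Pool 1 of the WT had the highest top2a of its group (9082 against 8498 to 8646) and the fewest opsin counts for its depth. A normalized count is a count scaled to the mean effective library size after TMM normalization. A single count was worth from 0.73 normalized counts in WT pool 3 to 1.25 in mutant pool 1.

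Opsin transcripts were almost gone from the mutants. Summed over the 8 genes, the pools held 171, 512, 146, 147 and 60 opsin counts in can4-/- larvae, against 46084, 55526, 85731, 62028 and 49776 in WT larvae. As CPM this was 1.91 to 13.4 in can4-/- (median 4.17) and 1150 to 1934 in WT (median 1700). The mean of the mutants was 0.398% of the mean of the WT, a 251-fold difference, or 367-fold without mutant pool 2. Even the lowest WT pool had 78.8 times the normalized opsin sum of the highest mutant pool.

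All 7 tested opsins were lower in can4-/- by edgeR's quasi-likelihood test at a Benjamini-Hochberg adjusted p under 0.05, where 36.9% of all tested genes were lower, 36.3% were higher and 73.2% were called in either direction. In all 7, every mutant pool was below every WT pool, as in 31.4% of all tested genes. Genes with few mutant counts, such as opn1lw1 and opn1mw1, passed the filter through WT pools alone, so lower was the only call open to them. The direction alone therefore says little about opsins. By the size of the decrease, 5 of the 7 fell by at least 100-fold, as did 22 of all 23039 genes (0.0955%). All 7 were past 16-fold, as were 0.664% of all genes. Whole larvae were sequenced, so that fewer photoreceptors and less opsin RNA per photoreceptor cannot be told apart.

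**Figure D1:**
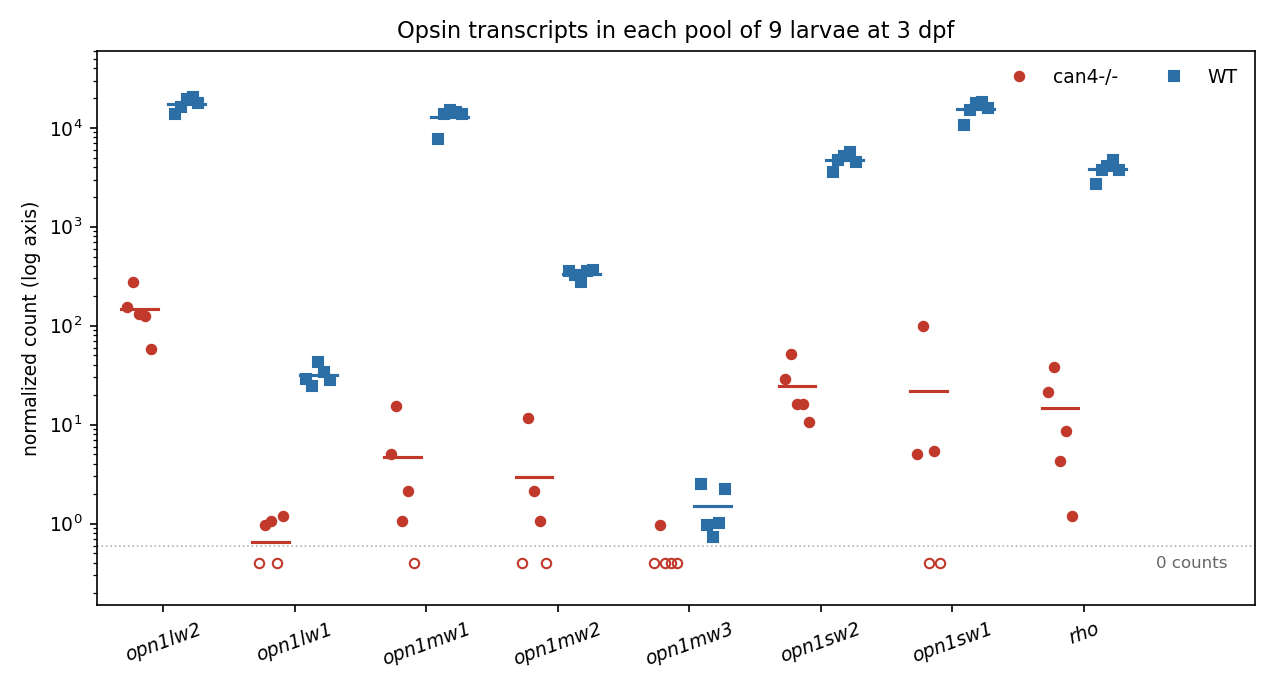
Normalized counts of the 8 opsins with counts, on a log axis, in can4-/- pools (red circles) and WT pools (blue squares). Horizontal bars are means of 5 pools, open circles below the dotted line are pools with 0 counts, and the bar of opn1mw3 in mutants lies off the axis. In each gene but opn1mw3 all mutant points lie below all WT points.

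The green cone opsin opn1mw1 showed the largest decrease. It had 4, 16, 1, 2 and 0 counts in the mutant pools, against 9133, 14101, 20865, 14028 and 12187 in the WT pools. After normalization this was 4.73 ± 6.26 in can4-/- and 12932 ± 2978 in WT (SD, n = 5 each), a log2 fold change of -11.29 (SE 0.35, adjusted p = 1.52e-11). Mutant pool 2 supplied 69.6% of the opn1mw1 counts in mutants, and without it the log2 fold change was -12.57. The WT pools were also uneven, since WT pool 1 had 54.2% of the mean of the other 4.

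The second copy of the green array, opn1mw2, had fewer counts than opn1mw1 in WT and fell less. It had 0, 12, 2, 1 and 0 counts in the mutant pools, against 425, 338, 385, 345 and 322 in the WT pools. The log2 fold change was -6.62 (SE 0.35, adjusted p = 1.13e-09), or -8.42 without mutant pool 2, which held 80% of its mutant counts. Summed over pools, opn1mw1 had 1.53 times the counts of opn1mw2 in can4-/- (2.33 times without mutant pool 2, from 7 and 3 counts) and 38.7 times in WT, so that the lead of opn1mw1 over its neighbor was much smaller in mutants. The log2 ratio of opn1mw1 to opn1mw2 was 4.52 lower in can4-/- than in WT (SE 0.70, two-sided exact permutation test, p = 0.00794, adjusted p = 0.00866 over 12 pairs, n = 5 pools each). The pair was chosen with earlier results of these data known, so its p is no independent support. A constant was added to each count, which draws the ratio toward 0 where both genes are near 0. In mutant pool 5 both had 0 counts, so its ratio came from the constant alone. With 5 as the constant the difference was -4.98. The test alone therefore cannot show which copy fell more. Reads that fit both copies could have been split between them by the counting, and 15 counts of opn1mw2 stand behind the mutant value.

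Red cone opsin opn1lw2 was the opsin with the most counts left. It had 123, 285, 123, 116 and 49 counts in mutant pools, against 16432, 16706, 27162, 19843 and 15707 in WT pools, so that it was detected in every mutant pool. The means were 149 ± 79.0 normalized counts in can4-/- and 17569 ± 2631 in WT (SD, n = 5 each), which is 0.846% of WT and a log2 fold change of -6.87 (SE 0.29, adjusted p = 1.71e-10). Mutant pool 2 was 2.35 times the mean of the other mutant pools, a smaller excess than for opn1mw1 (7.504 times).

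The other red opsin, opn1lw1, was scarce in both genotypes. It had 0, 1, 1, 0 and 1 counts in mutant pools, against 34, 25, 59, 33 and 25 in WT pools. Its log2 fold change of -5.35 (SE 0.42, adjusted p = 5.80e-08) was the smallest decrease among the tested opsins, and it rests on 3 counts in all mutants together. Its near copy opn1lw2 had 232 times as many counts in mutants and 545 times as many in WT, and since reads that fit both could be counted for either, the value of opn1lw1 is uncertain.

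The ultraviolet cone opsin opn1sw1 was the most uneven among mutants. It had 4, 103, 0, 5 and 0 counts in mutant pools, against 12635, 15687, 24405, 17684 and 14187 in WT pools. Pool 2 alone held 92.0% of the mutant counts, 38.3 times the mean of the other 4 after normalization. The log2 fold change was -9.32 (SE 0.60, adjusted p = 7.26e-09) with all pools and -12.49 without mutant pool 2, so that the estimated decrease was 641-fold with that pool and 5772-fold without it. Without it, the mean of opn1sw1 was 0.0167% of WT, close to the 0.0159% of opn1mw1.

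Blue cone opsin opn1sw2 was low but had counts in every mutant pool. It had 23, 54, 15, 15 and 9 counts in mutant pools, against 4197, 4853, 7177, 5496 and 3997 in WT pools. The log2 fold change was -7.53 (SE 0.24, adjusted p = 1.52e-11), and -8.05 without mutant pool 2. Its standard error was the smallest of the 7 with edgeR, but opn1lw2 had the smallest with the other methods DESeq2 and voom. Its gene model overlaps that of hcfc1a on the other strand by 1640 bp, and hcfc1a had 2585 to 4134 counts in mutant pools. The strand setting of the counting is not known, so some opn1sw2 counts in mutants may be reads of hcfc1a. The shares and ratios of opn1sw2 below have the same limit.

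Rhodopsin, the opsin of rods, was low in mutants too. The gene rho had 17, 40, 4, 8 and 1 counts in mutant pools, against 3225, 3815, 5677, 4598 and 3349 in WT pools. The log2 fold change was -7.94 (SE 0.31, adjusted p = 7.96e-11), and -8.77 without mutant pool 2. Each mutant pool still had at least 1 count of rho, and after normalization the mutant pools ran from 1.18 to 38.5, a wider spread for its mean than that of the WT pools (2722 to 4715).

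The opsins that remained were not a scaled-down copy of the WT set. Of the opsin counts in a pool, opn1lw2 took 74.5% ± 11.5 in can4-/- and 32.2% ± 2.07 in WT (SD, n = 5 each). The lowest mutant share was 55.7% in pool 2 (95% Wilson interval 51.3 to 59.9%, 285 of 512 counts), still above the highest WT share of 35.7%. The share of opn1mw1 was 1.502% ± 1.25 in can4-/- and 23.3% ± 2.21 in WT, and that of opn1sw1 was 5.17% ± 8.49 in can4-/- and 28.2% ± 0.466 in WT.

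In mutant pool 2, opn1sw1 took 20.1% (Wilson interval 16.9 to 23.8%), and in the other 4 mutant pools 0 to 3.40%. In mutant pools 3 and 5, 0 of 146 and 0 of 60 opsin counts were opn1sw1, which allows a share of up to 2.05% and 5.00%. Blue opsin opn1sw2 took 11.9% ± 2.20 in can4-/- and 8.62% ± 0.424 in WT, and rho took 5.52% ± 3.44 in can4-/- and 6.93% ± 0.307 in WT. Cone opsins together made up 94.5% ± 3.44 of the opsin counts in can4-/- and 93.1% ± 0.307 in WT. Shares are of counts, which grow with transcript length, so that they compare a gene between genotypes and not the amounts of one opsin and another. The intervals and limits cover counting error only.

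**Figure D2:**
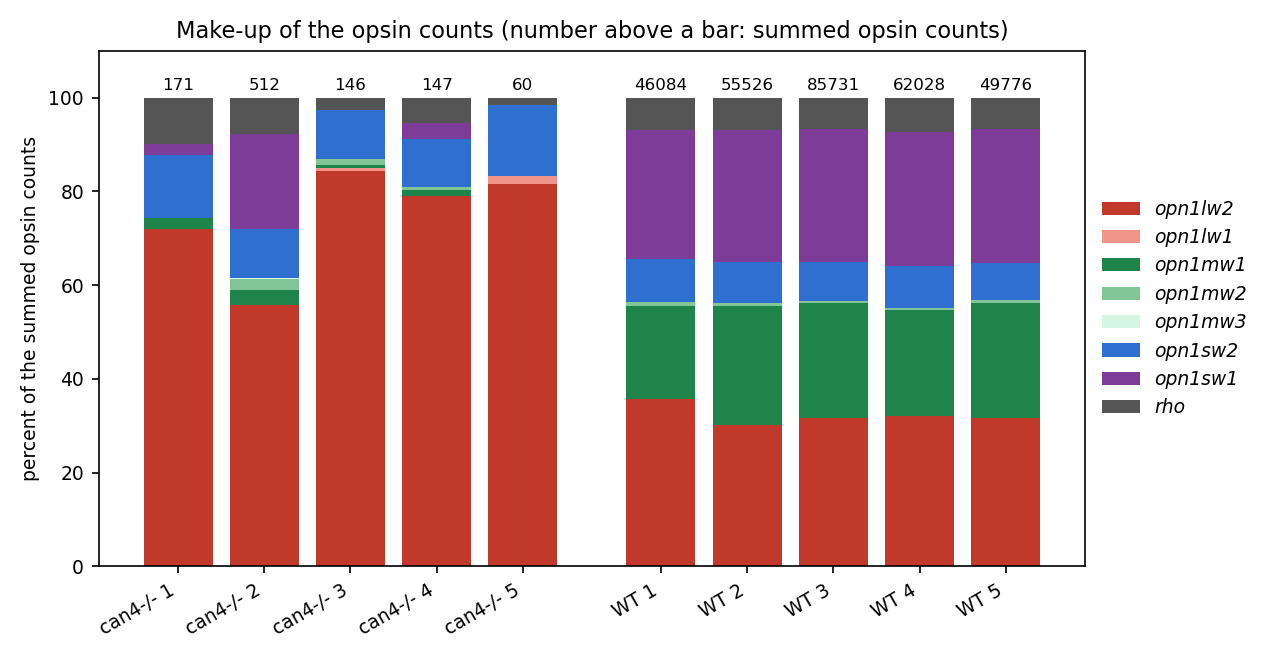
Share of each opsin in the summed opsin counts of a pool, in percent, for the 5 can4-/- pools (left) and the 5 WT pools (right), with the summed counts above each bar. The WT bars look alike, while in mutants opn1lw2 (red) takes 55.7 to 84.2% and opn1sw1 (violet) is large only in pool 2.

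The ratios of opsin pairs were compared between genotypes to ask which opsin fell more than another. These pairs were chosen with earlier results of these data known, so their p-values are no independent support. Of the 12 pairs in which both genes passed the filter on low counts, 11 differed at an adjusted p under 0.05. These were two-sided exact permutation tests of 5 pools against 5, for which p = 0.00794 is the smallest value possible. Several of the genes passed the filter through their WT counts alone. Where both genes of a pair are near 0 in mutants, the log2 ratio is drawn toward 0, so the count of 11 may partly reflect this floor. The log2 ratio of opn1mw1 to rho was 3.39 lower in can4-/- than in WT (SE 0.14, adjusted p = 0.00866, exact permutation test). The ratio of opn1mw1 to opn1sw2 was 4.30 lower (SE 0.44) and that of opn1sw1 to rho 3.23 lower (SE 0.76), at the same adjusted p. The ratio of opn1sw2 to rho was 0.92 higher in can4-/- (SE 0.44), and its adjusted p became 0.0606 when any single WT pool was left out. The sizes depend on the prior of 0.5 counts: with a prior of 5 the same 4 differences were -2.57, -3.00, -2.33 and 0.43, and all still passed.

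The pair that did not pass was opn1mw1 to opn1sw1, whose log2 ratio in can4-/- minus that in WT was -0.16 (SE 0.70, exact permutation test, p = 0.754). This does not show that green and ultraviolet opsins fell alike, since without mutant pool 2 the difference was 0.39 (SE 0.56). The 5 pairs with opn1lw1 were 2.15 to 7.17 higher in can4-/-, but lean on its 3 mutant counts. Their sizes depend on the prior too: for opn1lw1 to opn1sw2 the difference was 2.87, and 4.88 with a prior of 5. The abundant red opsin opn1lw2 was therefore set against the other types as well, a choice made after the values were seen. The p-values of these added pairs are thus no independent support either. Its log2 ratio was higher in can4-/- by 5.02 to opn1mw1 (SE 0.48), by 4.86 to opn1sw1 (SE 1.10), by 1.63 to rho (SE 0.47) and by 0.71 to opn1sw2 (SE 0.14), each at the smallest p the exact permutation test allows (adjusted p = 0.00840 over 18 pairs). In these pools opn1lw2 kept a larger part of its WT counts than opn1mw1, opn1sw1, rho and opn1sw2 did. It was not tested against opn1mw2, whose mutant mean was 0.879% of WT beside 0.846% for opn1lw2. With a prior of 5 counts in place of 0.5 these differences were smaller, at 3.45, 3.21, 0.88 and 0.44, and all 4 still passed (adjusted p = 0.0252 at most, exact permutation test). Without mutant pool 2 they were 5.36, 5.75, 1.89 and 0.77, and all passed.

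Most other opsin genes and most genes of the pineal list were lower too, and exorh was among the few that did not pass. The exo-rhodopsin gene exorh, a relative of rho that is used in photoreceptors of the pineal organ, had 81, 131, 168, 112 and 104 counts in mutant pools, against 129, 182, 200, 128 and 142 in WT pools. The genotypes overlapped, at 130 ± 29.8 normalized counts in can4-/- and 144 ± 26.2 in WT (SD, n = 5 each), and the log2 fold change was -0.14 with an interval of -0.46 to 0.17 (SE 0.16, adjusted p = 0.441). Summed over pools, exorh had 8.51 counts per count of rho in can4-/- (15.5 without mutant pool 2) and 0.0378 in WT. The log2 ratio of rho to exorh was 8.51 lower in can4-/- (SE 0.86, exact permutation test, p = 0.00794, adjusted p = 0.00840 over 18 pairs). This pair was added after the values were seen, so its p is no independent support.

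The rhodopsin-like gene rhol had 0 counts in each mutant pool, against 82, 107, 209, 166 and 96 in WT pools. With 3 counts over the mutant group as the limit of detection, it was at least 183-fold lower in can4-/-. Of 23 other opsin genes that were tested, 18 were lower, 1 was higher and 4 did not pass. Among all tested genes, 36.9% were lower and 36.3% were higher. The median log2 fold change of the other opsins was -0.99 against 0.0027 over all tested genes. After rhol, the largest decreases were those of opn9 (-4.66, SE 0.28) and opn6a (-3.50, SE 0.26), members of opsin groups that mammals lack.

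The log2 fold changes of the remaining lower genes were between -2.12 and -0.49. They included opn3, the encephalopsin gene, at -2.12, opn6b at -1.98, opn7d at -1.25, opn7c at -0.99 and opn7b at -0.73. Of the melanopsins, which serve light responses other than images, opn4.1 was at -1.83, opn4xb at -1.15 and opn4b at -0.58, while opn4a (-0.66, SE 0.31) did not pass and was near the threshold (adjusted p = 0.0694). The retinal G protein-coupled receptor gene rgra was at -1.39 and rrh, which encodes peropsin, at -1.31. The vertebrate ancient opsins, known from the deep brain, were at -1.10 (valopb) and -0.84 (valopa). The teleost multiple tissue opsins went in more than 1 direction, with tmtopsb at -0.63 and tmtops2a at -0.49 lower and tmtops2b higher at 1.002 (SE 0.27). opn8b was at -0.63, and rgrb (0.0093) and tmtops3a (-0.02) did not pass.

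**Figure D3:**
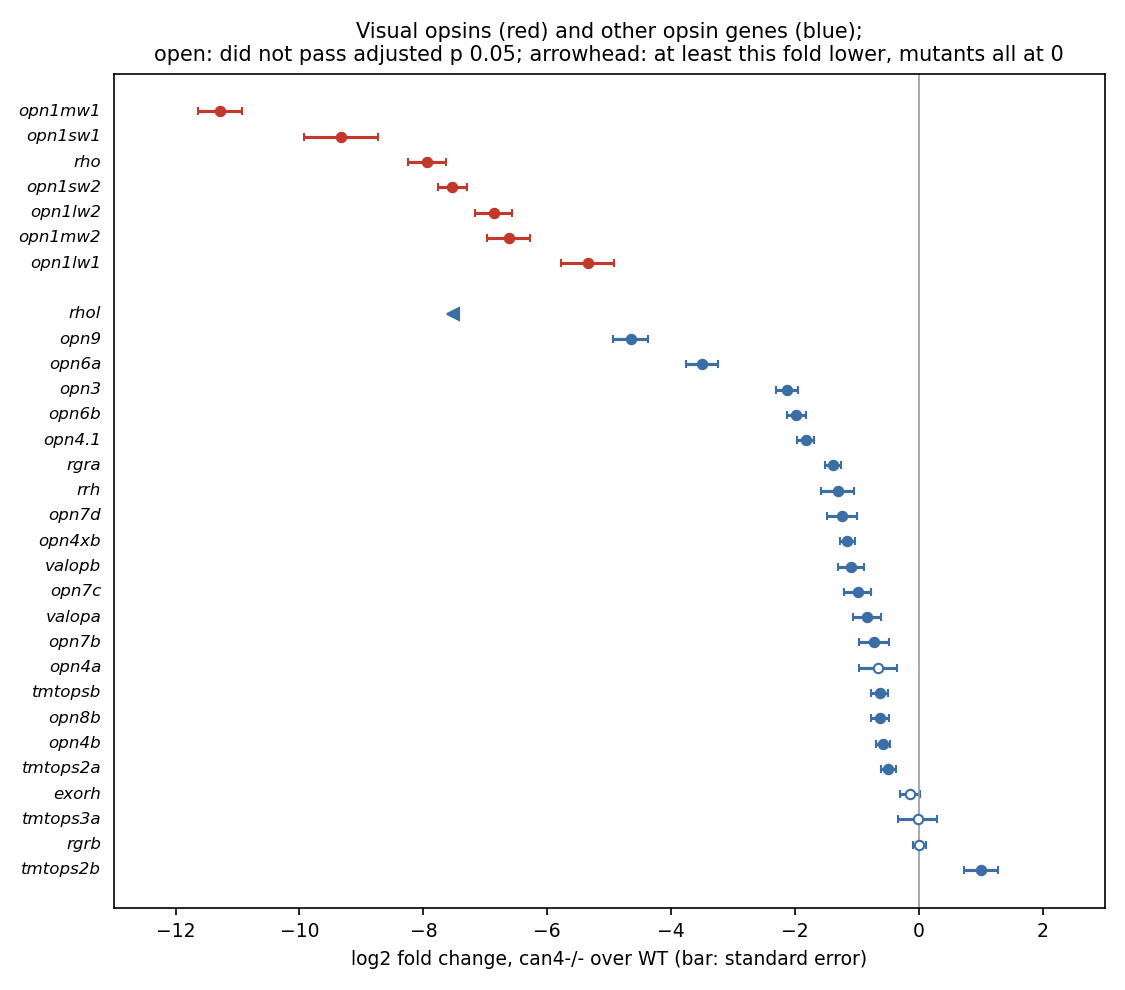
Log2 fold change of can4-/- over WT with its standard error for the 7 tested cone and rod opsins (red, top) and 23 other opsin genes (blue, below). Cone and rod opsins lie between -11.29 and -5.35, and of the other opsins only rhol, drawn as an arrowhead at its bound of 183-fold, is in that range.

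Most genes of the cascade that opsins start had lower transcript levels. Of 23 tested genes of the cone phototransduction cascade, 22 were lower, none was higher and 1 did not pass, with a median log2 fold change of -5.21. The shares over all tested genes were 36.9% lower and 36.3% higher. The cone transducin subunits gngt2b (-8.41, SE 0.19) and gnb3b (-7.52, SE 0.23) and rgs9a (-6.57, SE 0.22), which encodes a regulator that shuts transducin off, led the list. Their levels were 18.3 ± 4.86, 38.0 ± 17.1 and 7.26 ± 4.09 normalized counts in can4-/-, against 6252 ± 1150, 7122 ± 1402 and 702 ± 114 in WT (SD, n = 5 each). Of 22 genes of the rod list, 19 were lower, 1 was higher and 2 did not pass, with a median of -3.65. In whole larvae some of these genes are also used in other tissues, so the medians do not rank the cone and rod cascades. The largest decreases at a mean of at least 100 normalized counts were those of the disc rim gene rom1a (-6.85), the opsin kinase gene grk1b (-6.73) and rom1b (-5.73). A place in the rod list does not show that a gene is used in rods only. The disc rim genes rom1a and rom1b are not part of the cascade itself. They are also counted in the outer segment list, so the lists are not separate.

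Genes that carry opsins to the outer segment or build it were lower in 26 of 26 cases, beside 36.9% of all tested genes. Their median was -3.58. The largest decreases were those of prph2b (-8.88, SE 0.33) and prph2a (-6.84, SE 0.20), which encode peripherins of the disc rim, and of rom1a, which is in the rod list too. Across all 10 pools, the 5 genes with a profile closest to that of the summed opsins were prph2b, gngt2b, gnb3b, prph2a and arr3b, an arrestin gene of cones. Their root mean square differences from it, on the scale of log2(CPM + 0.1) centered on WT, were 0.456, 0.546, 0.633, 1.27 and 1.33. This measure weighs the genotype difference most, so it does not show that the genes varied together within a genotype. Mutant pool 2, the highest for the opsin sum, was also the highest mutant pool for prph2b, gnb3b, prph2a and arr3b. For gngt2b it was not, at 17.3 normalized counts against up to 22.5.

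Transcription factors of photoreceptors showed smaller decreases. In whole larvae many genes of this list are also used in other tissues, so that their values need not be those of photoreceptors. Of 28 tested, 24 were lower, 3 were higher and 1 did not pass, with a median of -1.496. Among all tested genes, 36.9% were lower and 36.3% were higher. Among those with a mean of at least 100 normalized counts, the largest decreases were those of crx (-3.92, SE 0.34), a factor that many photoreceptor genes need, six7 (-3.37, SE 0.32), a regulator of green and blue cone opsins in zebrafish, and neurod1 (-3.19, SE 0.22). The higher genes included gdf6a (0.73, SE 0.05), a signaling gene kept in this list, and prdm1a (0.68, SE 0.09).

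Factors known from zebrafish to set single photoreceptor types were looked up after the values had been seen. For blue cones, foxq2 was at -3.73 (SE 0.44). For rods, nr2e3 was at -2.23 and nrl at -2.18. For red cones, thrb was at -0.86 (SE 0.08), with 940 ± 120 normalized counts in can4-/- and 1711 ± 132 in WT (SD, n = 5 each). For ultraviolet cones, tbx2b was at -0.54 (SE 0.05). In whole larvae thrb and tbx2b are also used in other tissues, so that these values need not be those of photoreceptors.

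Gene lists for other cell types of the eye and for the pineal organ were followed beside the opsins. Their counts stand against 36.9% lower and 36.3% higher over all tested genes. In whole larvae many genes of the lists above, here and below are also used in other tissues. Their values need not be those of the named cells. Of 12 bipolar cell genes, 12 were lower (median -1.78), led by gnb3a (-4.30), vsx1 (-3.93) and pcp4l1 (-3.13). The smallest of these decreases was -0.098, and 11 to 12 genes were lower when single pools were left out. Of 18 genes of amacrine and horizontal cells, 14 were lower, 1 was higher and 3 did not pass (median -1.38), and the largest decreases at a mean of at least 100 normalized counts were those of prox1a (-2.17), tfap2b (-2.15) and pax6b (-1.97). Of 12 retinal ganglion cell genes, 10 were lower and 2 higher (median -1.20), with the largest decrease for pou4f2 (-3.06).

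For glia, pigment epithelium and lens the direction was mixed or opposite. Of 18 genes of Müller glia and pigment epithelium, 8 were lower, 8 were higher and 2 did not pass (median -0.20). With 36.9% of all tested genes lower and 36.3% higher, these counts say little about the named cells. Of 25 lens genes, 21 were higher, 1 was lower and 3 did not pass (median 1.92). Their summed normalized counts were 56211 to 74924 in can4-/- and 12516 to 18578 in WT, so that lens transcript rose where opsin transcript fell. Among the highest were bfsp2 (3.05), of the beaded filaments of lens fibers, and the crystallin gene cryba2a (2.60).

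Of 11 tested pineal genes, 8 were lower, 1 was higher and 2, exorh among them, did not pass (median -1.40). The shares over all tested genes were 36.9% lower and 36.3% higher. Those lower by most, arr3a (-5.70), gnat1 (-5.45) and gngt1 (-5.23), are genes that retinal photoreceptors use too. They are also counted in the cone or rod list, so the pineal list is not separate from those. The gene tph2 of serotonin synthesis was higher (0.39). The part of each cell type's abundance in the opsin decrease was not tested.

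**Figure D4:**
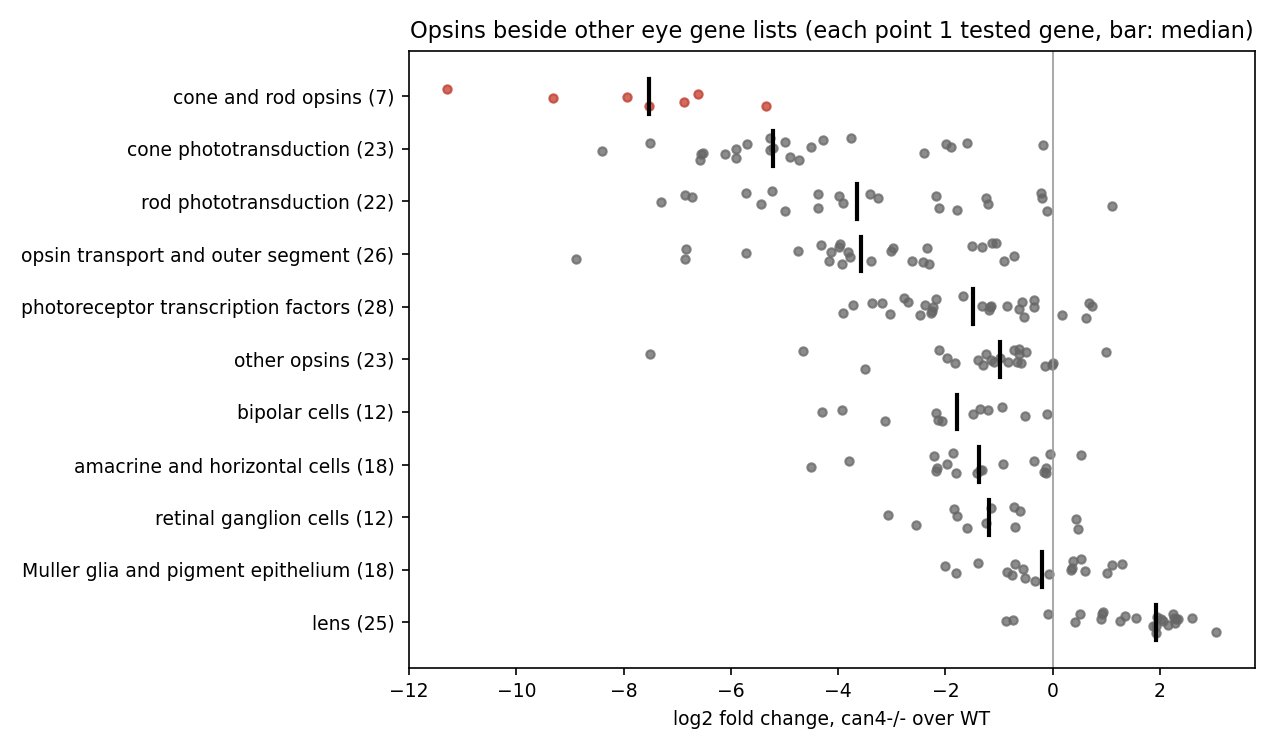
Log2 fold change of can4-/- over WT for each tested gene of the opsins (red) and 10 other lists of eye genes (grey), with the number of genes in brackets and the median as a black bar. Vertical scatter has no meaning, and rhol is drawn at its bound of 183-fold. Medians run from -7.53 for the opsins to 1.92 for the lens.

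The genes beside the opsins on the chromosomes were examined to see whether whole stretches fell together. Of 26 neighboring tested genes, up to 3 on each side of the 4 loci and any inside them, 15 were lower, 7 were higher and 4 did not pass. Over all tested genes, 36.9% were lower and 36.3% were higher. All neighbors but fkbp5, CT573282.1 and dre-mir-729 moved by less than 2 log2 units. Around the green array, slc6a22.1 (-0.17) and cplane2 (-0.10) did not pass, slc6a22.2 (-0.49), synpr (-0.84) and cadpsb (-0.99) were lower, and fkbp5 was higher at 2.05 (SE 0.27). Around rho, SLC35E2A (-0.38), CABZ01079663.1 (-1.33), magi1a (-0.96), prickle2a (-0.80), CABZ01085594.1 (-1.35) and brpf1 (-0.44) were all lower, against -7.94 for rho itself. The gene calua, 1450 bp from opn1sw1, was higher at 0.63 (SE 0.04), as were tnpo3 (0.16) and irf5 (0.60), while mdm1 was lower at -0.77.

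Near the blue and red array, adnpa was lower (-0.41), gnl3l (0.46) and tfe3b (0.45) were higher, and gata1a (0.18) did not pass. The gene hcfc1a, whose model overlaps that of opn1sw2 by 1640 bp on the other strand, was lower at -0.57 (SE 0.07). Singled out after their values were seen, 2 neighbors stood with the opsins. The antisense gene CT573282.1, which overlaps opn1sw2 by 121 bp on the other strand (chromosome 11, 25475283 to 25476185), had 3, 20, 5, 3 and 1 counts in mutant pools, against 314, 342, 511, 394 and 305 in WT pools, a log2 fold change of -5.59 (SE 0.31, adjusted p = 1.83e-09). No source used here gives the strand setting of the counting, so reads of opn1sw2 may not be separable from those of CT573282.1 or of hcfc1a. The microRNA gene dre-mir-729, 4135 bp from opn1sw1, had 0 counts in each mutant pool, against 29, 43, 49, 41 and 35 in WT pools, which is at least 55.53-fold lower in can4-/- with 3 counts over the mutant group as the limit.

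**Figure D5:**
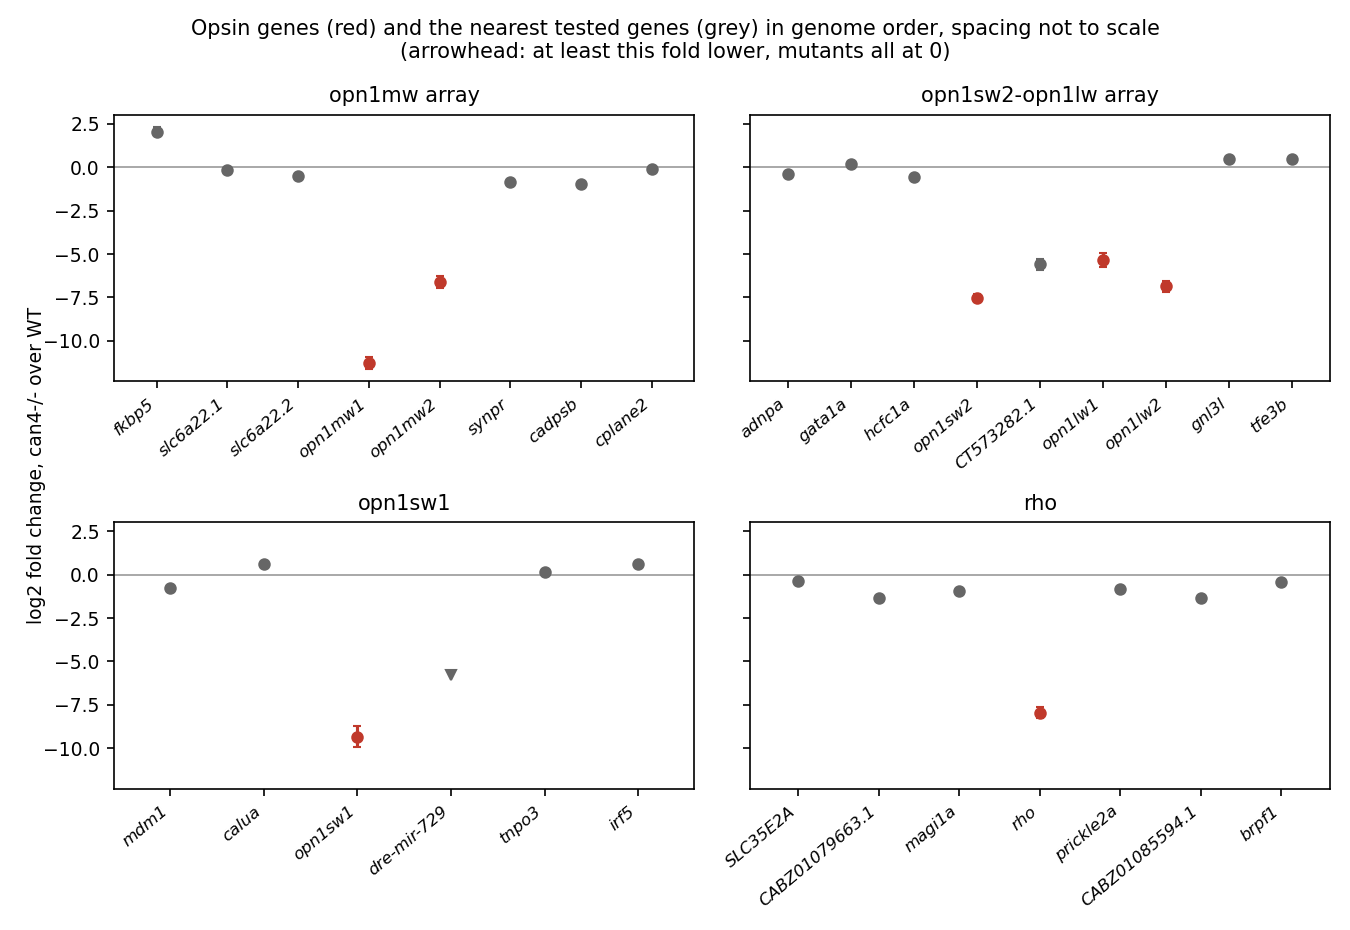
Log2 fold change of can4-/- over WT with its standard error for the opsins (red) and their nearest named tested genes (grey) at 4 loci, in genome order and not to scale. The opsins lie far below their neighbors except for CT573282.1 and for dre-mir-729, which is drawn as an arrowhead at its bound of 55.53-fold.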

How the data were processed

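Whole 3 dpf larvae were pooled by genotype, 5 pools of 9 larvae each for can4-/- and WT, and total RNA libraries were made with a strand-keeping kit after rRNA removal. The authors aligned reads with STAR (2.7.0f in the submitters' processing notes, with GRCz11) and deposited raw counts per gene of Ensembl release 96, not normalized. No source used here names the program that counted reads. The authors' own comparison (fold changes and p-values from DESeq2), normalized and rlog values were not used.

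From the counts, edgeR 4.0.16 in R 4.3.3 gave TMM factors, a filter (filterByExpr, minimum count 10, minimum total 15) and quasi-likelihood tests with genotype as the only term, with Benjamini-Hochberg adjustment over 23039 genes and a threshold of 0.05. The test was also run on simulated data, with smaller changes than those of the opsins and in fewer genes than were called here. That run does not cover decreases as large as those of the opsins. The standard error is the log2 fold change divided by the root of F. Ratios of opsin pairs were log2 of counts plus 0.5, compared with exact permutation tests in SciPy 1.17.1. Depth was 29281449 to 45544046 counts per pool. No pools of a genotype agreed within sampling noise, with chi-square per degree of freedom of 4.77 to 26.9 over 20 pairs.

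The members, the 11 gene lists and the tests were chosen with earlier results of these data known. Named genes were the opsins, top2a, the tested genes of the list of other opsins, up to 3 largest decreases and 2 largest increases per list with a mean normalized count of at least 100, the neighboring genes and the 5 genes most like the summed opsins. Outside this rule, foxq2, nr2e3, nrl, thrb and tbx2b were added after the values had been seen. Symbols with a colon or with more than 1 gene were left unnamed. The alternatives were DESeq2 1.42.0, limma 3.58.1 voom, scaling by RLE or by library totals, omitting the filter, at least 50 counts in every pool of a genotype, a replicate block, a prior of 5 counts in the ratios, and leaving out pools. Coordinates are those of the deposited annotation. No opsin sequence was analysed here.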

Additional observations from a re-analysis of the deposited data

Results flagged for a closer look

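In 38 groups of 5 pools, 8 values lay far from the other 4 of their group by Dixon's criterion. For normally distributed values chance alone gives this in about 1 of 20 groups. That rate need not hold for groups with counts near 0, such as those of opn1mw2 and opn1mw3 in mutants. The groups are not independent, since 5 of the 8 values come from mutant pool 2 and 3 from WT pool 1.

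Mutant pool 2 was the highest can4-/- pool for opn1sw1, at 99.3 normalized counts against 0 to 5.36 in the other mutant pools, and for the share of opn1sw1 in opsin counts, at 20.1% against 0 to 3.40%. It was also the highest for opn1mw2, at 11.6 against 0 to 2.15, and for opn1mw3, at 0.964 against 0 (a single count). Its top2a level was 1358 against 635 to 688. WT pool 1 was the lowest WT pool for opn1mw1, at 7710 against 13703 to 15138, and for the share of opn1sw1, at 27.4% against 28.3 to 28.5%. Its top2a level was the highest, at 9082 against 8498 to 8646. The cause of these values was not tested.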

How the results depend on the processing

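All 7 tested opsins stayed lower under each alternative that tested them. The gene opn1lw1 dropped out under the filter of 50 counts, which left 6. Sizes and errors differed by method. With voom, opn1sw1 was at -11.80 (SE 1.19), opn1mw1 at -12.04 (SE 1.30) and opn1mw2 at -7.52 (SE 0.56). With DESeq2 they were at -9.46 (SE 1.36), -11.38 (SE 0.70) and -6.76 (SE 0.72). DESeq2 gave each of the 7 a larger standard error than edgeR. So did voom, except for opn1lw1 (0.38) and opn1lw2 (0.28). Leaving out single pools gave log2 fold changes of -5.59 to -5.07 for opn1lw1, -7.23 to -6.67 for opn1lw2, -12.57 to -11.00 for opn1mw1, -8.42 to -6.34 for opn1mw2, -8.05 to -7.35 for opn1sw2, -12.49 to -9.00 for opn1sw1 and -8.77 to -7.67 for rho. Without mutant pool 2 and WT pool 1 together, a setting chosen after seeing the data, opn1mw1 was at -12.70 and opn1sw1 at -12.60. The log2 ratio of opn1mw1 to opn1sw1 changed sign, with -0.67 to 0.39 when single pools were left out (0.39 without mutant pool 2 and 0.01 without mutant pool 4) and 0.35 without both pools named above. With the replicate numbers as a block, 0 of 12 pairs passed by the exact sign-change test against 11 without it; the smallest p that 5 pairs allow is 0.0625, so this test could not pass. The numbers do not pair the pools: correlations of same-numbered pools were -0.022 to 0.033, and none matched its own number best. With library totals instead of TMM, all log2 fold changes shifted by a median of -0.17 and the calls over all genes became 5919 higher and 10997 lower, against 8356 and 8505. The call of opn4a was gained with library totals (-0.83) and without mutant pool 2 (-0.83) or WT pool 1 (-0.81). Few counts in mutants (0 to 285 per opsin and pool) limit the precision of each opsin's residual level.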
